A study of Mus musculus with 3 samples.

Results

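The genes described are 9 genes of the early B lineage, Vpreb1, Vpreb3, Igll1, Dntt, Rag1, Rag2, Ebf1, Pax5 and Cd79a, out of 32285 genes in the count tables. They were chosen by name, and each was measured in leukemia cells and in mature B cells of the peripheral blood (PB) by single-cell RNA-seq, as UMIs (counted RNA molecules) summed over the cells of a class and given as CPM, the count scaled to an equal total for every sum. The blood came from WT Balb/C mice that carried no leukemia (naive) and from WT Balb/C mice engrafted with BBC2 SCLL cells and sampled at day 11 (D11, intermediate disease) or day 14 (D14, late disease), 1 library for each of the 3 conditions. The study's methods describe its engrafted mice as female and 6 to 8 weeks old, and the number of mice behind each library is not given in the sources used here. SCLL is a leukemia driven by a chimeric FGFR1 kinase. BBC2 is a single cell line, grown from a leukemia of stem cells that had been transduced with BCR-FGFR1 and described as like pro-B cells, and it carries GFP from the vector. GFP is not among the genes of the count tables, so leukemia cells were recognised by their own transcripts.

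A developing B cell builds its receptor in steps. In pro-B cells the recombinase Rag1 and Rag2 cuts the immunoglobulin heavy chain genes, and terminal deoxynucleotidyl transferase (Dntt) adds untemplated bases at the joints. In pre-B cells the new heavy chain pairs with a surrogate light chain made of Vpreb1 and Igll1 and is carried to the surface with the signaling chains Cd79a and Cd79b, while the transcription factors Ebf1 and Pax5 set and keep the B cell program. Mature B cells have replaced the surrogate light chain by a kappa or lambda chain, switched off Rag1, Rag2 and Dntt, and kept Ebf1, Pax5 and Cd79a.

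Leukemia cells were the cells with at least 3 UMIs of Vpreb1, Igll1, Dntt and Rag1 together, and mature B cells those with at least 3 UMIs of Cd79a, Cd79b and Ms4a1 and fewer than 3 of the former. The leukemia limit was met by 2 of 3811 cells of the naive library, 109 of 4567 at D11 and 782 of 4414 at D14. The naive mice carried no leukemia, so the limit can also take cells that are not leukemia. How many of these the D11 and D14 classes hold is not known. The class made up 0.0525% of cells in the naive library (95% Clopper-Pearson interval 0.00636% to 0.189%), 2.39% at D11 (1.96% to 2.87%) and 17.7% at D14 (16.6% to 18.9%). The D14 share was 7.42 times that at D11 (6.07 to 9.16). The mature B share went the other way, at 10.2%, 6.48% and 1.70% of the cells (389, 296 and 75 cells). All kept cells are counted in these shares, among them erythroid cells. Those made up 1.44% of the naive, 27.2% of the D11 and 20.7% of the D14 cells, so both shares also depend on the red cells in each library. With 1 library per condition no difference between conditions could be tested, and intervals here and below cover counting error only. Differences between conditions and between libraries cannot be told apart.

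**Figure D1:**
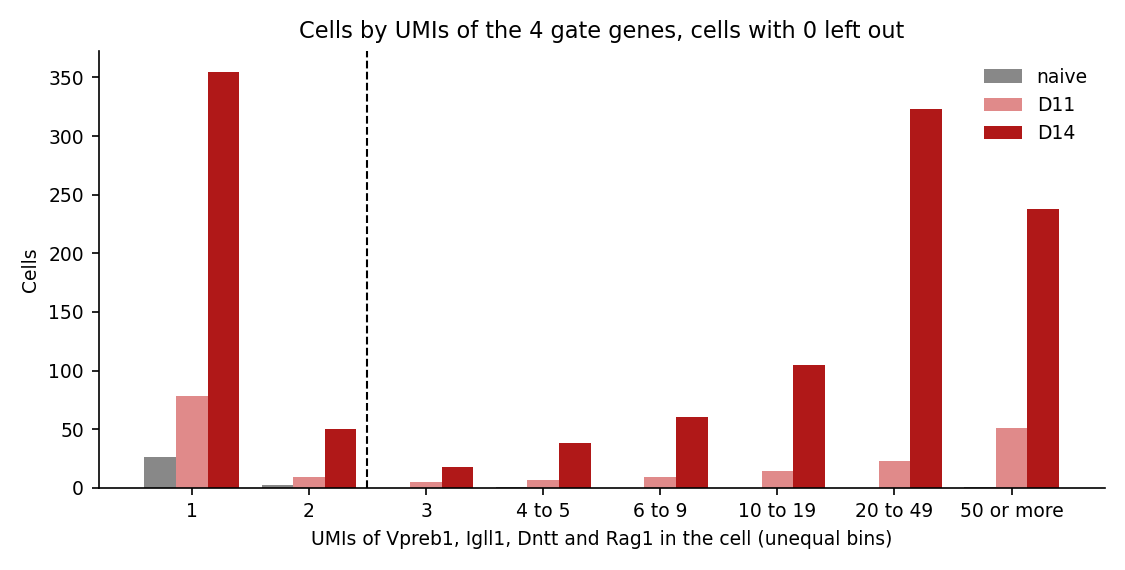
Number of cells (vertical axis) by the UMIs of Vpreb1, Igll1, Dntt and Rag1 in the cell (horizontal axis, unequal bins), with cells at 0 UMIs left out and 1 bar for each library. The dashed line marks the limit of 3 UMIs, and 323 D14 cells had 20 to 49 UMIs and 238 had 50 or more, against 23 and 51 at D11.

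Cells just inside and just outside the limit differed in depth and in the members. At D14 the 18 cells with 3 UMIs of the gate genes had 557 CPM of Vpreb3, 2595 CPM of Ebf1 and 427 CPM of Cd79a. The 50 cells with 2 UMIs had 456, 1432 and 173 CPM, and the 355 cells with 1 UMI had 103, 285 and 66.5 CPM. The leukemia cells held medians of 26789 UMIs at D11 and 31692 at D14, and the mature B cells 6365, 5868 and 8668 UMIs in the naive, D11 and D14 libraries. The sums held 3314366 and 25493717 UMIs in leukemia cells and 2791103, 2121095 and 878998 in mature B cells. The libraries shared 12 to 18 barcodes in each pair.

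Of 8 markers each for T cells, NK cells, neutrophils, monocytes, erythroid cells and platelets, 3 or more of at least 1 list were found in 16 of 109 leukemia cells at D11 (14.7%, 8.63% to 22.7%) and in 108 of 782 at D14 (13.8%, 11.5% to 16.4%), and no single list reached more than 6.42% and 5.12% of them. The T cell list had the highest summed level, 202 CPM at D11 and 186 CPM at D14. All 8 markers of mature B cells were at least 2-fold lower in leukemia cells than in mature B cells of the same library at both times. Cd74, the invariant chain of MHC class II, was at 15.4 CPM at D11 and 29.3 CPM at D14 in leukemia cells and at 4851 and 1879 CPM in mature B cells. H2-Aa, an MHC class II chain, was at 7.84 and 1.73 CPM against 2035 and 780 CPM.

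The mature B class was not uniform. At least 10 UMIs of Cd74, H2-Aa, Ighd and Fcer2a, a limit set after the values were seen, were carried by 348 of the 389 mature B cells of the naive library and 247 of the 296 at D11 but by 44 of the 75 at D14. The other 31 cells at D14 held 836 CPM of Vpreb3 against 102 CPM in the 44, and 9 of them were cycling (2 or more UMIs of Mki67 and Top2a) against 5 of the 44. Ratios to mature B cells at D14 are therefore also given below for the 44 cells alone, where 22.2% of 7623 genes were at least 2-fold higher and 16.7% at least 2-fold lower in leukemia cells.

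Of the 9 members, 7 had at least 20 CPM in leukemia or mature B cells at D11 and at D14, the minimum for the shares over all genes, and Rag1 and Rag2 lay below it. Among the 7, 4 were at least 2-fold higher in leukemia than in mature B cells at D11 (Vpreb1, Vpreb3, Igll1 and Dntt), where 31.8% of 7414 genes were, and 1 was at least 2-fold lower (Pax5), where 19.8% of genes were. At D14 Vpreb1, Vpreb3, Igll1 and Dntt were again higher, against 11.2% of 7424 genes, and 0 were lower, against 11.7% of genes. Rag1, under the minimum, also stood past 2-fold lower at D11. Vpreb1, Igll1, Dntt and Rag1 chose the leukemia cells and Cd79a took part in choosing the mature B cells, so for these 5 the difference follows in part from the choice and is given only as a description. Vpreb3, Rag2, Ebf1 and Pax5 took part in neither choice. A fold was not given where both sums held 3 UMIs or fewer, as for Rag2 at D11, or where the level lay below the floor that 3 UMIs set in a sum with 0 UMIs, as for Rag1 and Rag2 at D14.

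The size of these ratios depended on the limit for leukemia cells. With a limit of 20 UMIs, chosen after the values were seen, cells with 3 to 19 UMIs fell into the mature B class and made up 187 of its 262 cells at D14 and 25 of 321 at D11. At D14 the ratio of leukemia over mature B cells was then 3.11 for Vpreb1, 2.60 for Igll1 and 5.31 for Dntt, and Vpreb3, at 1.45 (1.41 to 1.49), no longer passed 2-fold. At D11 the 4 ratios were 21.9, 15.1, 21.3 and, for Vpreb3, 5.67.

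**Figure D2:**
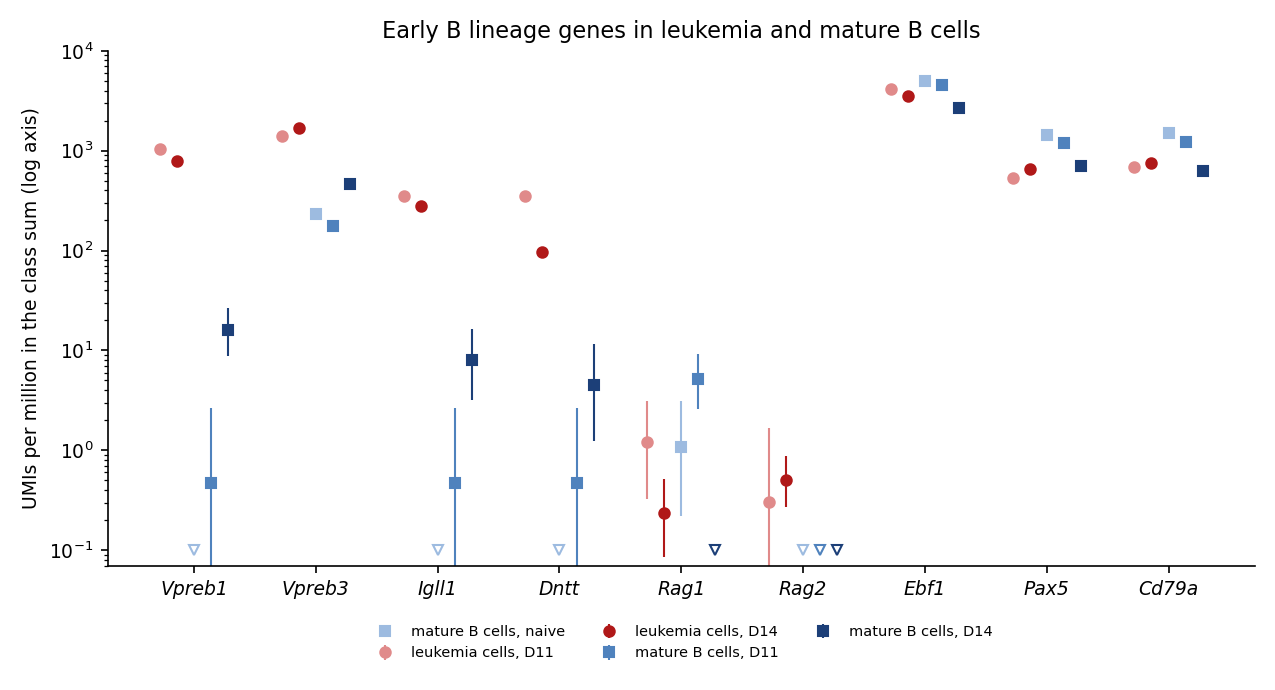
Level of each member (vertical axis, CPM of the class sum, log axis) in leukemia cells at D11 and D14 (circles) and mature B cells in the naive, D11 and D14 libraries (squares), 1 library each, with exact Poisson 95% intervals, and open triangles at the lower edge for sums with 0 UMIs. Vpreb1, Igll1 and Dntt lay at 96.6 to 1036 CPM in leukemia cells and at 0 to 15.9 CPM in mature B cells, while Ebf1, Pax5 and Cd79a were high in both.

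The surrogate light chain genes lie side by side on chromosome 16, both on the minus strand in GRCm38, Vpreb1 at chr16:16868403-16870843 and Igll1 at chr16:16860671-16863985, with 4417 bases between the annotated genes. Both were lower in leukemia cells at D14 than at D11, by a like ratio. The start regions of both are shown because of this shared course, and that of Dntt because its course differed. Each is the RefSeq promoter window of GRCm38.p6, from 250 bases before to 50 bases after an annotated start, on the strand of the gene, at chr16:16869206-16869505 for Vpreb1, chr16:16863936-16864235 for Igll1 and chr19:41029025-41029324 (plus strand) for Dntt. Capitals mark the E-box CAGGTG on either strand (CACCTG where it is read from the other strand), a sequence that E proteins such as Tcf3 can bind.

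Vpreb1: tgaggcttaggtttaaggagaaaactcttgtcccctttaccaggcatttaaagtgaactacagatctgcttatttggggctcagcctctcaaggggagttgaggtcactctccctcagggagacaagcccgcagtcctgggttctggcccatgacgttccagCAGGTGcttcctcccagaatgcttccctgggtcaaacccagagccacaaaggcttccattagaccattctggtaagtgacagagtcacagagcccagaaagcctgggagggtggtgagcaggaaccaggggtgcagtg
Igll1: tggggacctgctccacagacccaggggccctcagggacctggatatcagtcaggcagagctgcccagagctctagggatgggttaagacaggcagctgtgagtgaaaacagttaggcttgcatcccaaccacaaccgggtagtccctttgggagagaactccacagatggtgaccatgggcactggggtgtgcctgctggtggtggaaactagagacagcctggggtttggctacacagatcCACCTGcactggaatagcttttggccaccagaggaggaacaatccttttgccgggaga
Dntt: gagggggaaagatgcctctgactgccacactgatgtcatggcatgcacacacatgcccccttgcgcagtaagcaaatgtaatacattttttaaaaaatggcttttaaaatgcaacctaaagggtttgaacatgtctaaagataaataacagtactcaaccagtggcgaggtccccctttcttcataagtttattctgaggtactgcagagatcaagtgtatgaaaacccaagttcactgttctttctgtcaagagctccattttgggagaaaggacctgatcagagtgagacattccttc

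The E-box began 88 bases before the RefSeq start in Vpreb1 and 8 bases before it in Igll1, and the Dntt window held none. The Vpreb1 window lies inside the span given above for that gene, which is from GENCODE. Its E-box is therefore not upstream of the start of that span. Of the 10 windows of the 9 members, 4 held it (Vpreb1, Igll1, Rag1 and Cd79a), as did 20.2% of all 32851 windows. The motif of Ebf1 in the form CCCNNGGGA was in 0 of the 10 and in 6.56% of all windows. Only exact matches were counted, so this does not show that the windows lack sites that Ebf1 can bind. A match is a description of these letters only, and whether it bears on the level or course of a gene was not tested.

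Vpreb1 had 1036 CPM in leukemia cells at D11 (3434 UMIs) and 794 CPM at D14 (20238 UMIs), a D14 level 0.766 of that at D11 (0.739 to 0.795). In mature B cells it had 0 UMIs in the naive library, 1 UMI at D11 (0.471 CPM) and 14 UMIs at D14 (15.9 CPM). At D11 and D14 mature B cells stood far below leukemia cells. The ratio of leukemia over mature B cells was 2198 at D11 (394 to 86828) and 49.8 at D14 (29.7 to 91.2). Vpreb1 took part in choosing both classes, so this difference follows in part from the choice and is given only as a description. The log2 ratio at D14 was 5.64, and it was 7.46 against the 44 mature B cells alone and 1.64 with the limit of 20 UMIs.

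Igll1, the other chain, followed the same course. It had 352 CPM at D11 (1167 UMIs) and 277 CPM at D14 (7067 UMIs), a D14 level 0.787 of that at D11 (0.74 to 0.838). Mature B cells held 0, 1 and 7 UMIs in the naive, D11 and D14 libraries. Cells chosen with the other 3 genes alone gave the same order, at 355 CPM at D11 and 278 CPM at D14 for Igll1 and at 1055 and 822 CPM for Vpreb1.

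Vpreb2 lies 1110 kb from Vpreb1 on the same chromosome, and its annotated transcript is 97.4% identical to that of Vpreb1 over 759 aligned bases. It had 121 CPM at D11 and 98.2 CPM at D14 in leukemia cells. How many reads of either gene were dropped or moved to the other in counting is not known, so the levels of Vpreb1 and Vpreb2 are uncertain. The share of leukemia cells and these CPM levels are separate quantities, and in the summed UMIs of a class fewer cells with a transcript and fewer molecules per cell cannot be told apart.

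Vpreb3 (chr10:75943057-75949657) codes for a protein that binds immunoglobulin chains inside early B cells. It was among the most evenly detected members of leukemia cells, with a UMI in 109 of 109 cells at D11 and 778 of 782 at D14. Its level was 1405 CPM at D11 and 1681 CPM at D14, a ratio of 1.20 (1.16 to 1.23), so that it was higher at D14 where Vpreb1 and Igll1 were lower. In mature B cells it had 234 CPM in the naive library, 178 CPM at D11 and 466 CPM at D14. Leukemia cells stood 7.90-fold higher at D11 (7.11 to 8.80) and 3.60-fold higher at D14 (3.27 to 3.98). Of the 410 UMIs in D14 mature B cells, 365 lay in the 31 cells with few mature markers, and the D14 log2 ratio of 1.85 became 4.05 against the 44 cells alone. With the limit of 20 UMIs it was 0.53, under 2-fold.

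Dntt (chr19:41029275-41059525), the nucleotide-adding enzyme, differed most between D11 and D14 among members with more than 13 UMIs. It had 352 CPM at D11 (1165 UMIs) and 96.6 CPM at D14 (2463 UMIs), so that the D14 level was 0.275 of that at D11 (0.256 to 0.295), a log2 ratio of -1.86. Mature B cells held 0, 1 and 4 UMIs in the naive, D11 and D14 libraries. Leukemia cells chosen without Dntt gave 348 CPM at D11 and 96.3 CPM at D14. Among cells with like UMIs of the other 3 gate genes together, D14 lay below D11 in each of 5 ranges, from 196 CPM at D11 and 26.5 CPM at D14 with 3 to 5 UMIs (13 and 56 cells) to 398 and 130 CPM with 50 or more (45 and 193 cells). The ratio of D14 over D11 in these ranges ran from 0.135 to 0.350. When the UMIs of Dntt itself were counted too, the 5 D11 and 18 D14 cells with 3 gate UMIs had the other order, at 33.4 and 38.8 CPM.

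The lower Dntt level at D14 was seen in the share of cells as well as in the sum. A Dntt UMI was found in 88 of 109 leukemia cells at D11 (80.7%) and in 365 of 782 at D14 (46.7%). After each cell was thinned to 2000 UMIs, to set depths equal, the shares were 38.7% (29.4% to 48.6%) and 15.4% (12.9% to 18.2%), from 106 and 772 cells that were deep enough. In neutrophils, which do not make Dntt, the thinned shares were 0.15% and 0.406%. The median cell held 194 CPM at D11 and 0 CPM at D14, and the 95th percentile was 1201 CPM at D11 and 598 CPM at D14. The upper part of the D14 cells therefore overlapped the D11 cells.

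**Figure D3:**
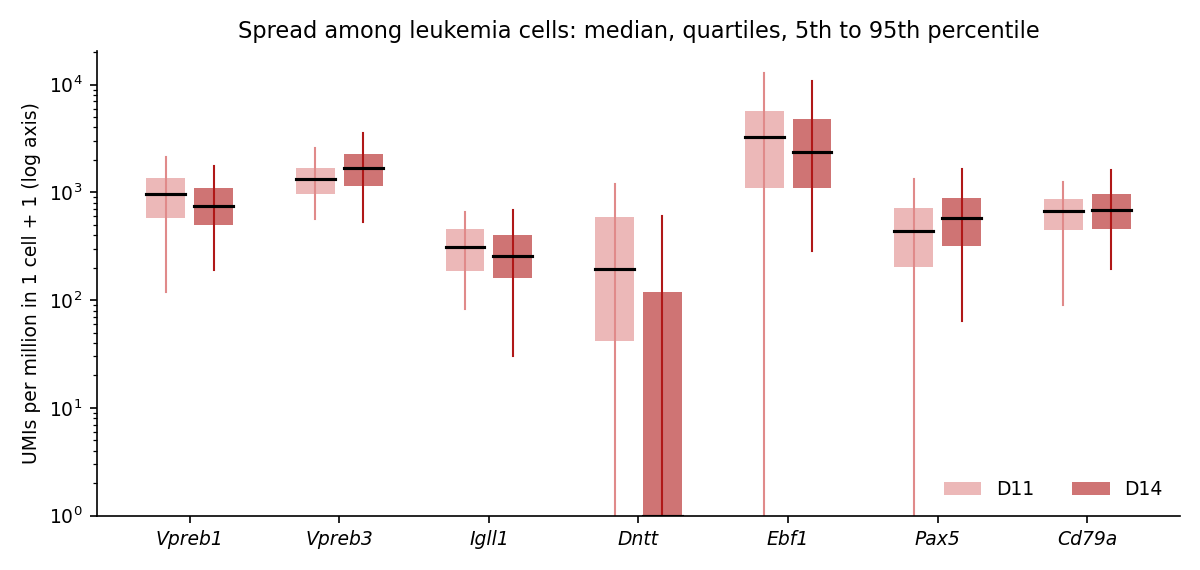
Spread of the members with over 20 CPM among leukemia cells at D11 (109 cells) and D14 (782 cells), as CPM in 1 cell plus 1 (vertical axis, log axis), with the median (black line), the quartiles (box) and the 5th to 95th percentile (line). Dntt is the member with a median of 0 CPM at D14, against 194 CPM at D11, while the medians of Vpreb1 were 960 and 745 CPM.

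The recombinase genes Rag1 (chr2:101638282-101649501) and Rag2 (chr2:101624718-101632529), which are 5752 bases apart, were almost not detected in the leukemia cells. Rag1 had 4 UMIs in 2 of 109 cells at D11 (1.21 CPM, 0.329 to 3.09) and 6 UMIs in 6 of 782 cells at D14 (0.235 CPM, 0.0864 to 0.512). Rag2 had 1 UMI in 1 cell at D11 and 13 UMIs in 7 cells at D14 (0.51 CPM, 0.272 to 0.872). Both lay over 100-fold below Dntt at each time in the same sums. Since Rag1 helped to choose the cells, the D11 cells chosen without it are the fairer count, and these 107 cells held 0 Rag1 UMIs, which allows up to 1.12 CPM at the upper limit of the interval. The ratio of D14 over D11 was 0.195 for Rag1 (0.0462 to 0.94) and 1.69 for Rag2 (0.254 to 71.8), both from few UMIs. The Rag1 ratio follows from the choice, since all 4 D11 UMIs lay in 2 cells that met the limit only through Rag1. With Rag1 left out of the choice, 782 D14 cells held 6 UMIs (0.235 CPM) and the 107 D11 cells 0.

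Mature B cells at D11 held 11 Rag1 UMIs in 9 of 296 cells (5.19 CPM, 2.59 to 9.28), a higher CPM than in the leukemia cells of that library. Of these, 8 UMIs in 7 cells lay in the 49 cells with under 10 UMIs of the 4 mature markers, where Vpreb3 was at 696 CPM against 118 CPM in the other 247. Naive mature B cells held 3 Rag1 UMIs in 2 of 389 cells and D14 ones 0 UMIs in 75 cells, which allows up to 4.2 CPM. The log2 ratio of leukemia over mature B cells at D11, -2.10, was 0.49 when levels were averaged over cells. No Rag2 UMI was found in any mature B sum.

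Ebf1 (chr11:44617317-45008091, 390775 bases long) and Pax5 (chr4:44524757-44710487), the factors that set and keep the B cell program, were expressed in leukemia and mature B cells alike. Ebf1 had 4130 CPM in leukemia cells at D11 and 3486 CPM at D14, and in mature B cells 4998, 4491 and 2671 CPM in the naive, D11 and D14 libraries. It was the highest of the members in both classes on this scale, which counts 3′ reads and takes no account of gene length. The ratio of leukemia over mature B cells was 0.920 at D11 (0.896 to 0.944) and 1.31 at D14 (1.25 to 1.36). Against the 44 D14 mature B cells alone the D14 log2 ratio turned from 0.38 to -0.14, so no direction held for Ebf1 at D14.

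Pax5 stood lower in leukemia cells than in the mature B cells of naive and D11 blood. It had 530 CPM at D11 and 655 CPM at D14 in leukemia cells, and 1437, 1204 and 696 CPM in mature B cells. At D11 the ratio of leukemia over mature B cells was 0.440 (0.414 to 0.467), a log2 ratio of -1.19. At D14 the ratio was 0.941 (0.868 to 1.02), an interval that includes 1, and against the 44 mature B cells, where Pax5 was at 927 CPM, it was 0.707 (0.641 to 0.781). In leukemia cells Pax5 at D14 was 1.24 times its D11 level (1.18 to 1.30), and Ebf1 was 0.844 times (0.829 to 0.860).

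Cd79a (chr7:24897381-24902197), the signaling chain of the receptor, was kept at a level like that of Pax5. It had 687 CPM at D11 and 747 CPM at D14 in leukemia cells (ratio 1.09, 1.04 to 1.14), and 1495, 1220 and 627 CPM in the mature B cells, which it helped to choose. Its partner Cd79b, which also helped to choose the mature B cells, had 174 and 229 CPM in leukemia cells and 983 and 413 CPM in mature B cells at D11 and D14, and 672 CPM in the 44 D14 cells. Cd79a was found in 106 of 109 leukemia cells at D11 and 775 of 782 at D14.

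Between D11 and D14, 1 of the 7 members with at least 20 CPM was at least 2-fold lower in leukemia cells, Dntt, against 0.397% of 6801 genes, and 0 were at least 2-fold higher, against 2.96% of genes. Rag1, below that minimum, was also past 2-fold lower, which rests on 4 and 6 UMIs and was lost with a limit of 5 gate UMIs. The 4 UMIs at D11 lay in cells that were chosen only through Rag1, so this difference follows from the choice. The median log2 ratio of all genes was 0.01. Among the other members the order of levels in leukemia cells was Ebf1, Vpreb3, Vpreb1, Cd79a, Pax5, Igll1 and Dntt at both times, apart from Igll1 and Dntt at D11, whose intervals of 332 to 373 and 332 to 372 CPM overlapped. At D14 no neighbours in that order had overlapping intervals.

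Between the naive and D14 libraries, 4 members had at least 20 CPM in mature B cells (Vpreb3, Ebf1, Pax5 and Cd79a), and of these 0 were at least 2-fold higher, against 15.2% of 7210 genes, and 2 were lower (Pax5 and Cd79a), against 6.23% of genes. Pax5 was at 0.484 (0.444 to 0.528) and Cd79a at 0.419 (0.383 to 0.458) of the naive level. A further 3 passed 2-fold upward below that minimum, Vpreb1, Igll1 and Dntt. They were at 0 UMIs in the naive cells and at 14, 7 and 4 UMIs at D14, which makes them at least 14.8-fold, 7.41-fold and 4.23-fold higher against a floor of 3 counts in the sum. The 44 D14 cells with mature markers held 2, 2 and 1 UMIs of them. With at least 10 UMIs of the mature markers required in both libraries, 1 member passed 2-fold, Vpreb3, which was lower at D14, at 102 CPM against 221 CPM in the naive cells. In these cells Pax5 was at 0.640 (0.577 to 0.709) and Cd79a at 0.521 (0.466 to 0.580) of the naive level, both under 2-fold. Between naive and D11, 0 of the 4 members with at least 20 CPM passed 2-fold, against 1.87% of 6433 genes that were higher and 1.68% that were lower, and Rag1 (3 and 11 UMIs), below the minimum, was higher. Neutrophils at D14, which should hold none of the members, held 1.14% to 2.82% of the leukemia level of the 7 members other than Rag1 and Rag2, against 0.133% to 0.722% at D11. Vpreb1, Igll1 and Dntt were at 14.0, 5.78 and 2.73 CPM in D14 neutrophils and at 0 UMIs in naive neutrophils. The D14 mature B cells held 15.9, 7.96 and 4.55 CPM of them, so the upward difference was not particular to mature B cells. The part of free RNA in the D14 mature B values was not tested.

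Most of what the libraries held of the members other than Rag1 and Rag2, which had few UMIs, lay in leukemia cells by D14. Leukemia cells held 98.5% of the Vpreb1 UMIs, 97.7% of Vpreb3, 98.6% of Igll1, 98.1% of Dntt, 94.4% of Ebf1, 93.7% of Pax5 and 96.1% of Cd79a among all kept D14 cells. At D11 they held 98.7% of Vpreb1 and 98.9% of Dntt. Of the UMIs of all genes in kept cells, leukemia cells held 25493717 of 51192755 at D14 and 3314366 of 36950092 at D11. The shares of the members depend in part on this. Vpreb1, Igll1 and Dntt chose the leukemia cells, so their shares at both times follow in part from the choice. The shared genes were divided at D11, with 56.4% of Ebf1 UMIs in leukemia and 39.2% in mature B cells, and 38.8% and 56.4% of Pax5. Of the 19 Rag1 UMIs at D11, 21.1% lay in leukemia and 57.9% in mature B cells.

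**Figure D4:**
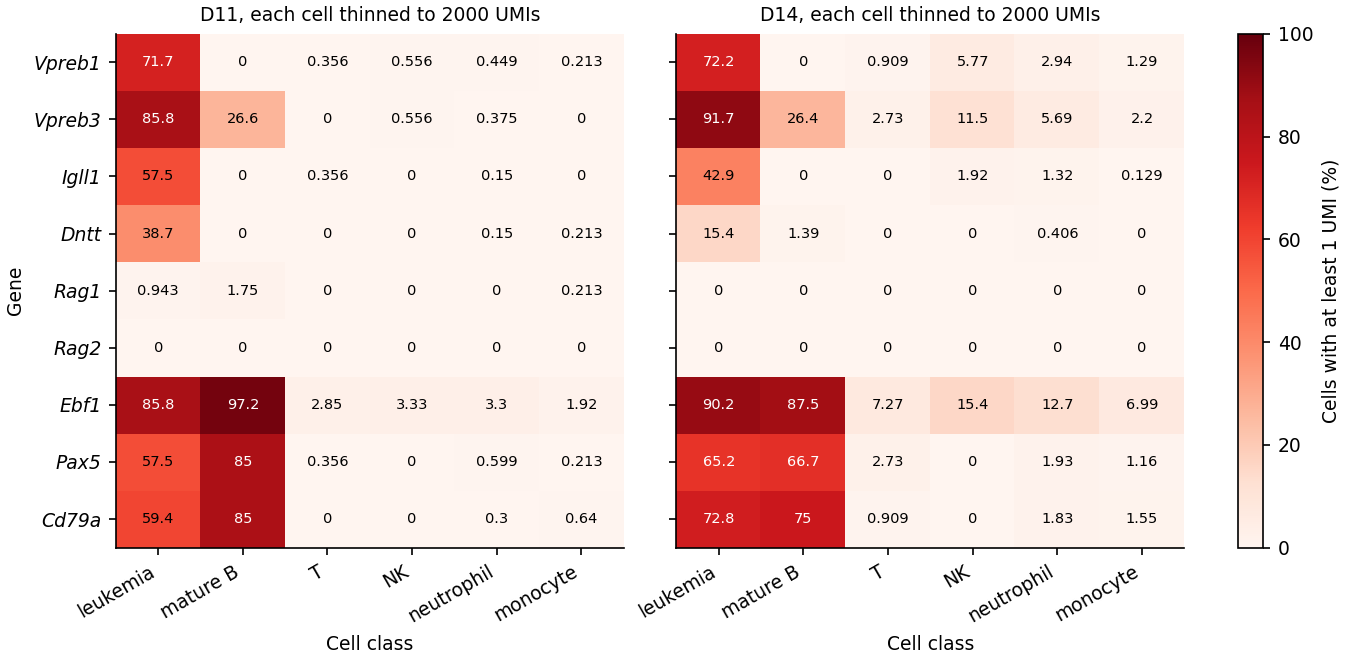
Share of cells with at least 1 UMI of each member (rows) in 6 cell classes (columns) at D11 and D14 after each cell was thinned to 2000 UMIs, with the percent printed in each field and colour from 0 to 100%. Vpreb1 was found in 71.7% and 72.2% of leukemia cells and in 0.449% and 2.94% of neutrophils, and Ebf1 in 97.2% and 87.5% of mature B cells.

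Single leukemia cells carried the members together. Of the 7 members other than Rag1 and Rag2, all 7 were found in 77 of 109 leukemia cells at D11 (70.6%) and in 345 of 782 at D14 (44.1%), and 5 or more in 92.7% and 98.2%. Among mature B cells 5 or more were carried by 0 of 389 in the naive library, 2 of 296 at D11 and 13 of 75 at D14. At an equal depth of 2000 UMIs, 5 or more were found in 55.7% of D11 and 53.4% of D14 leukemia cells. In mature B cells the share was 0% in all 3 libraries. Leukemia cells were chosen to hold at least 3 UMIs of Vpreb1, Igll1, Dntt and Rag1, and mature B cells fewer than 3. These counts follow in part from that choice, since 3 of the 7 members took part in it.

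Pairs of members were found in the same thinned cell about as often as the product of their shares. For a gene found in most cells the observed share cannot lie far above the product, so values near 1 do not show that such pairs are independent. At D14 Vpreb3 was found in 91.7% and Ebf1 in 90.2% of the thinned cells. At D14 Ebf1 and Pax5 were both found in 61.3% of 772 cells, 1.04 times the product, and Vpreb1 and Igll1 in 33.3%, 1.08 times. Igll1 and Dntt were both found in 8.42%, 1.27 times the product, and this figure depended on the depth, at 1.14 times with 1000 UMIs per cell and 1.12 times with 3000. Vpreb1 and Dntt were at 1.07 times, and at 1.38 and 1.08 times with 1000 and 3000 UMIs. At D11 the 2 pairs were at 0.975 and 1.26 times in 106 cells. Vpreb1, Igll1 and Dntt chose the cells by their summed UMIs, so the figures for pairs among them depend in part on the choice. Over cells, Spearman's rho of Ebf1 with Pax5 was 0.43 at D11 and 0.28 at D14, of Vpreb3 with Cd79a 0.08 and 0.30, and of Vpreb1 with Vpreb3 0.18 and 0.25. Each cell is 1 point and all cells of a time share 1 library, so these are descriptions of thinned counts.

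Most leukemia cells were cycling. At least 2 UMIs of Mki67, a proliferation antigen, and Top2a, the DNA topoisomerase of dividing cells, were found in 96 of 109 cells at D11 (88.1%) and 597 of 782 at D14 (76.3%), against 1.54%, 2.36% and 18.7% of mature B cells in the naive, D11 and D14 libraries. The cells were not thinned for these shares. Leukemia cells were deeper, with medians of 26789 and 31692 UMIs against 6365, 5868 and 8668 in mature B cells, and the part of depth was not tested. At D14 the 125 leukemia cells with 0 UMIs of Mki67 and Top2a were the comparison. Dntt was higher in cycling cells, at 105 CPM against 55.9 CPM, a ratio of 1.87 (1.59 to 2.22). Pax5, Cd79a and Vpreb3 were lower in cycling cells, at ratios of 0.681 (0.652 to 0.711), 0.732 (0.703 to 0.763) and 0.763 (0.742 to 0.785). Ebf1 was at 0.866 (0.849 to 0.884) and Vpreb1 at 0.953 (0.913 to 0.996), and Igll1, at 0.949 (0.882 to 1.02), had an interval that included 1. Cycling cells were also deeper, with a median of 34582 UMIs against 23403, and the part of depth in these ratios was not tested. D11 held 9 cells with 0 UMIs of both, with a median of 3395 UMIs, and several ratios pointed the other way there. Ebf1 (1.66, 1.34 to 2.08) and Vpreb1 (1.71, 1.12 to 2.77) were higher in cycling cells at D11. Intervals that included 1 were those of Dntt, at 0.713 (0.443 to 1.23), and Vpreb3, at 1.19 (0.875 to 1.66). So were those of Cd79a, at 1.25 (0.799 to 2.08), and Igll1, at 1.53 (0.772 to 3.54). In the summed UMIs Pax5 was lower in cycling cells at D11, at 0.531 (0.379 to 0.770). The share of cells had the other order, with Pax5 in 94.8% of the 96 cycling cells and 22.2% of the 9 others. Those 9 cells held Rag1 at 116 CPM, against 0 CPM in the cycling cells. These were the 4 Rag1 UMIs of the 2 cells that met the leukemia limit only through Rag1. The Rag1 difference therefore follows from the choice.

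Other genes of B cell development are described here for 6 lists with counts of genes past 2-fold among those with at least 20 CPM. Each count stands beside the shares over all genes, 31.8% higher and 19.8% lower at D11 and 11.2% and 11.7% at D14. Of 12 genes of the pre-B cell receptor and its signaling, 1 was higher in leukemia cells at both times (Vpreb2), and 8 at D11 and 6 at D14 were lower, with a median log2 ratio of -2.02 and -0.98, beside 0.29 and 0.07 over all genes. The list holds Cd79b, which helped to choose the mature B cells. Against the 44 D14 mature B cells 8 were lower. Syk, the kinase that the receptor first recruits, was at 112 and 137 CPM in leukemia cells and 1324 and 595 CPM in mature B cells, with 943 CPM in the 44 cells. Bank1, a scaffold of B cell signaling, was at 10.6 and 26.8 CPM against 2801 and 1372 CPM (2431 CPM in the 44). Btk, a kinase downstream, was at 112 and 133 CPM against 193 and 155 CPM and passed 2-fold at neither time.

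All 7 immunoglobulin chain genes were lower in leukemia cells at both times, where 19.8% and 11.7% of all genes were, and against the 44 D14 cells, which Ighd helped to choose. The mature B sums of Jchain came from few cells. They were 1035 UMIs in 7 of 296 cells at D11 and 193 UMIs in 5 of 75 at D14. Jchain was found in 9.17% and 17.1% of leukemia cells, against 2.36% and 6.67% of mature B cells, without thinning to equal depth. Ighm, the mu heavy chain, was still at 432 and 436 CPM, against 2048 and 1175 CPM in mature B cells (2035 CPM in the 44). Igkc, the kappa light chain, was at 842 and 1334 CPM against 7418 and 4686 CPM (6173 CPM in the 44), whereas the lambda chains were near 0, with Iglc2 at 0 UMIs at D11 and 13 UMIs at D14 in leukemia cells. Counts per gene do not separate transcripts of a rearranged chain from those of an unrearranged locus.

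Of 12 genes that work with the recombinase or join the cut ends, 9 had at least 20 CPM, and 3 were higher at both times, a share near the 31.8% of all genes at D11 and above the 11.2% at D14. They were Xrcc6, a part of the Ku complex that holds broken DNA ends, and Hmgb1 and Hmgb2, DNA-bending proteins of chromatin. Hmgb1 was at 5180 and 3439 CPM in leukemia cells and 434 and 893 CPM in mature B cells (592 CPM in the 44). At D11 3 were lower (Xrcc4, Dclre1c and Polm) and at D14 1 was (Nhej1). Against the 44 cells 3 were higher and 1 lower.

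Of 19 early B transcription factors, 6 were higher at both times (Tcf3, Lef1, Erg, Myb, Sox4 and Id3), and 6 at D11 and 4 at D14 were lower. The count of higher factors was at the share of all genes at D11 (31.8%) and above it at D14 (11.2%), and against the 44 cells 6 were higher and 6 lower, where 22.2% and 16.7% of genes were. Lef1, a partner of beta-catenin, was at 570 and 456 CPM in leukemia cells and 24.0 and 150 CPM in mature B cells (54.3 CPM in the 44). Erg, an ETS factor of stem and progenitor cells, was at 161 and 151 CPM against 1.89 and 42.1 CPM (2.26 CPM, from 1 UMI, in the 44). Bach2 was lower, at 374 and 525 CPM against 2865 and 1090 CPM (1698 CPM in the 44), and Bcl11a was the 1 factor past 2-fold between the times, at 168 CPM at D11 and 357 CPM at D14.

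Of 12 surface genes of early B cells, 9 at D11 and 10 at D14 had at least 20 CPM. Of these, 4 were higher in leukemia cells at both times, Il7r, Cd24a, Cd93 and Enpep, and 4 at D11 and 2 at D14 were lower. Against the 44 cells 4 were higher and 2 lower. Il7r, the receptor chain for interleukin 7, was at 226 and 325 CPM against 29.7 and 71.7 CPM (11.3 CPM in the 44), and Enpep, the BP-1 antigen of late pro-B and pre-B cells, was at 279 and 470 CPM against 1.41 and 110 CPM (9.05 CPM in the 44). Kit, which marks earlier pro-B cells, had 0 and 1 UMIs in leukemia cells, and Cd34, a progenitor marker, 0 UMIs at both times. Cd22 was at 3.62 CPM at D11 and 21.2 CPM at D14 in leukemia cells.

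**Figure D5:**
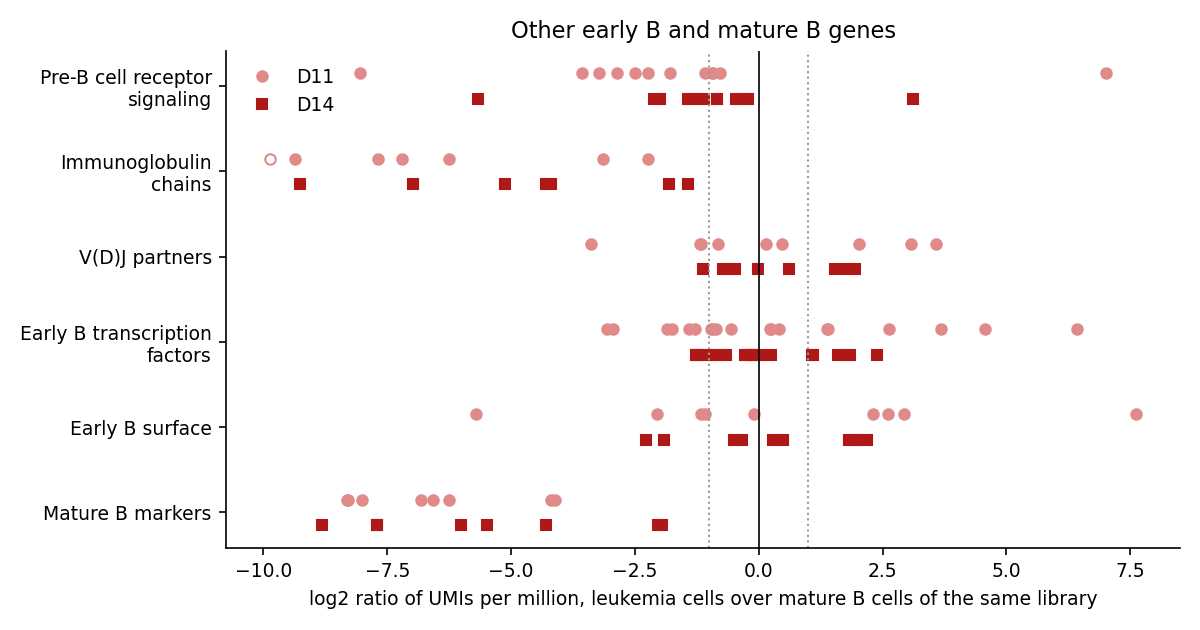
Log2 ratio of CPM in leukemia over mature B cells of the same library (horizontal axis) for each gene with at least 20 CPM in 1 of the sums, by list (rows), at D11 (circles) and D14 (squares), with dotted lines at 2-fold and an open symbol for a bound. All mature B markers and immunoglobulin chains lay left of the lower dotted line, and the early B factors lay on both sides.

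Genes that were no members but had the most similar levels across 20 sums of a class and library were ranked by Pearson's r of log2(CPM + 1) with the mean of the 9 members, over 9692 genes. Cplx2 (0.986), 1700027J07Rik (0.985), Lmo7 (0.973), Ighg2b (0.972) and Gfra1 (0.970) led, followed by Mzb1, 2010007H06Rik, Dcbld1, Cecr2 and Chchd10. Among the members, r with that mean ran from 0.528 for Rag1 to 0.982 for Vpreb3. The sums share 3 libraries and the mean includes the members, so these values are descriptions. Genes with at least 100 CPM in leukemia cells were also ranked by the ratio of leukemia over all 75 mature B cells at D14. Vpreb1 and Igll1, which chose the leukemia cells, stood first and second of 1434 genes. They were followed by Ccnb2, Myl10, Tcrg-C2, Drc7, Pnp, Dlg2, Uaca and Cmtm7, and Vpreb3 stood at place 36. Dntt, at 96.6 CPM and a ratio of 21.2, lay under the minimum and was not ranked. Myl10 was at 818 CPM at D11 and 484 CPM at D14 in leukemia cells, and Tcrg-C2, a constant region of the T cell receptor gamma chain, at 307 and 354 CPM.

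The 2 naive cells that met the leukemia limit were unlike each other. The first held 5259 UMIs, with 4 of Rag1, 1 of Rag2, 118 of Ebf1, 0 of Vpreb1 and 0 of Mki67 and Top2a. The second held 49639 UMIs, with 41 of Vpreb1, 38 of Igll1, 0 of Rag1 and Dntt, and 44 of Mki67 and Top2a. Neither barcode was found in the other libraries.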

How the data were processed

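PB leukocytes, after red cell lysis and removal of dead cells, were measured by scRNA-Seq with 10x 3′ v3 reagents in 3 libraries. The authors deposited filtered Cell Ranger matrices that hold raw UMI counts for every gene and barcode, without normalization. The submitters' processing notes give Cell Ranger 7.1.0 and the build mm10, while the matrix headers name cellranger 5.0.1. The versions differ in whether intronic reads are counted by default, and this bears on the levels of long genes such as Ebf1 and Pax5.

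Cells needed 200 or more genes and no more than 10% of UMIs from mitochondrial genes. This kept 3811 of 5386 naive, 4567 of 8536 D11 and 4414 of 9337 D14 barcodes, with medians of 6031, 6389 and 6781 UMIs. Hemoglobin genes held 11.2%, 55.9% and 22.5% of all UMIs. Doublets were kept in the values reported and removed with Scrublet (scanpy 1.11.5), at 0.8% per 1000 cells, as an alternative. The remaining cells were classed by the marker list with the most detected genes, at least 3 and 2 more than any other list. Levels are CPM of the UMIs summed per class and library, with 95% intervals from the exact Poisson distribution (scipy 1.17.1). For a ratio of 2 levels the interval is the exact conditional binomial one, and for a share of cells that of Clopper and Pearson. Where the lower sum held 0 UMIs, 3 counts were put in its place and the ratio is a bound. Shares and list counts over genes use those with at least 20 CPM in 1 of 2 sums. With 1 library per condition no test was run. Positions are from GENCODE vM21 and promoters from RefSeq (GRCm38.p6), in which all 9 members were matched. The members, gene lists and limits were chosen with earlier results of these data known.

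The genes named are the members, genes of the 6 lists, Vpreb2, the 10 genes most like the members (sums of at least 50 cells) and the 10 with the largest ratio of leukemia over mature B cells at D14 among those with at least 100 CPM. The calculations were tested on simulated counts. Alternatives were other cell filters, other limits of the leukemia class, doublet removal, removal of cells with markers of another class, a stricter mature B class, other denominators, edgeR 4.0.16 TMM factors (R 4.3.3), per-cell means, other gene minimums, thinning depths and cycling limits.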

Additional observations from a re-analysis of the deposited data

Results flagged for a closer look

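The direction of leukemia over mature B cells differed between D11 and D14 for Ebf1, at log2 ratios of -0.12 and 0.38, and for Cd79a, at -0.83 and 0.25. This difference between the times was not tested, since each rests on 1 library. With the 44 D14 mature B cells that held at least 10 UMIs of the 4 mature markers, the D14 ratios were -0.14 and -0.11.

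Barcodes that were left out for their mitochondrial share or gene number also met the leukemia limit. There were 0 of 1575 such barcodes in the naive library, 5 of 3969 at D11 and 85 of 4923 at D14. The 85 had a median of 7042 UMIs and held 449 CPM of Vpreb1, 568 CPM of Vpreb3 and 4890 CPM of Ebf1.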

How the results depend on the processing

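No paired analysis was possible because each condition has 1 library, and for the same reason no replicate could be left out. The counts of members higher in leukemia than in mature B cells stayed within 1.5 times the value reported under every alternative. This follows in part from the choice, since Vpreb1, Igll1 and Dntt chose the cells. Vpreb3, which did not, fell below 2-fold at D14 with a leukemia limit of 20 UMIs, to a log2 ratio of 0.53. With that limit 3 members were higher at D14. Dntt stayed lower at D14 than at D11, at log2 ratios of -1.88 to -1.75. Of 48 shares under an alternative 30 lay within the interval reported. Of 397 log2 ratios 285 were counted as unchanged. These lay within the interval reported or, for a bound with no interval, stayed past 2-fold in the same direction. Over all barcodes, leukemia cells made up 1.34% (D11) and 9.29% (D14) and mature B cells 7.59%, 3.61% and 1.05% in the naive, D11 and D14 libraries. Under a filter of 500 genes and 5% mitochondrial UMIs the leukemia share was 3.19% and 22.7%, and the D11 mature B share 7.88%. Removal of cells with markers of another class gave a D14 leukemia share of 15.3% and a D11 mature B share of 5.56%. Counts of members in this section cover all 9, without the minimum of 20 CPM. On that count 2 were lower in leukemia than in mature B cells at D11, and 2 were lower in leukemia cells at D14 than at D11. In mature B cells from naive to D14, 3 were higher and 2 lower. A leukemia limit of 5 UMIs gave a D14 mature B share of 2.20%, and 1 member past 2-fold between D11 and D14. A limit of 2 UMIs gave 1 member lower in leukemia cells at D11 and 3 past 2-fold in mature B cells from naive to D14. With no UMI of the gate genes in mature B cells the D14 mature B share was 1.29%, 1 member was lower in leukemia cells at D11 and 1 passed 2-fold in mature B cells from naive to D14. The next 2 alternatives were chosen after seeing the data. With 10 UMIs of the 4 mature markers the mature B shares were 9.13%, 5.41% and 0.997%, 1 member was lower in leukemia cells at D11, 1 passed 2-fold in mature B cells from naive to D14, and 2961 genes passed 2-fold at D14. With a leukemia limit of 20 UMIs, which moves cells with 3 to 19 UMIs into the mature B class, the leukemia shares were 1.62% and 12.7%, the D14 mature B share 5.94%, 1 member passed 2-fold between D11 and D14, and 190 genes passed 2-fold at D14. Averaged over cells, 3 members passed 2-fold in mature B cells from naive to D14, 2713 genes passed 2-fold at D14, and Rag1 at D11 reversed to a log2 ratio of 0.49. The genes past 2-fold in leukemia over mature B cells numbered 2531 at D11 and 1012 at D14 with a minimum of 50 CPM and 7136 and 4484 with none, and 2978 at D14 with 5 CPM. Between D11 and D14 they numbered 103, 2308 and 667. Unless the construction shows it, the cause was not tested. Rag1 and Rag2 had at most 13 UMIs in any sum, so differences in them could be read only within wide intervals.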
